A study of Homo sapiens with 12 samples.

Results

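Ribosome biogenesis and polyamine synthesis were followed through 36 genes, listed by symbol as MYC targets, most with nucleolar, RNA polymerase I or polyamine roles. The list also held CAD (pyrimidine synthesis), TERT (telomerase) and IPO4 (a nuclear importer). All 36 were found among the 60623 genes of the deposited count table, and all 36 passed the filter on low counts that left 23684 genes for testing. RNA was sequenced from SW480 and COLO320DM, both established human colorectal cancer cell lines, the second being known for MYC copies on extrachromosomal double minutes. Each line was transfected with 10 µg of pCMV6-HKDC1, a plasmid that expresses the hexokinase-like enzyme HKDC1 from the CMV promoter, or with the empty vector pCMV6-Entry. The transfection used a lipid reagent and was ended after 24 h by a change of medium. Each of the 4 groups (SW480 with HKDC1, SW480 with empty vector, COLO320DM with HKDC1, COLO320DM with empty vector) had 3 libraries, and the labels do not say whether these were separate cultures. The p-values therefore measure the spread between these libraries, which may be technical. The share of cells that took up plasmid was not given in the sources used here.

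Ribosomes are made mainly in the nucleolus. RNA polymerase I transcribes the long ribosomal RNA precursor, small nucleolar ribonucleoproteins (snoRNPs) guide its chemical modification, and large processing complexes cut and fold it into the 40S and 60S subunits. Polyamines are small cations, made from ornithine, that bind RNA and are needed for growth. The transcription factor MYC binds the hexamer CACGTG, the E-box, and many of these genes are known as its targets. MYC binding was not analysed here, so the word target is background and not a measurement.

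A promoter entry in RefSeq (GRCh38.p14, 250 bases before to 50 after the start) was matched for 31 of the 36 genes. CACGTG, which reads the same on both strands, occurred in 14 of these 31 windows (45.2%), against 9.71% of the windows of 12035 tested protein-coding genes and 7.26% of all 35116 windows. Restricted to the 250 bases before the start, it occurred in 6 genes (19.4%), against 8.58% of tested protein-coding genes. Because the genes were listed as MYC targets, these shares are not independent of their choice. The following 30-base stretches come from RefSeq, read 5′ to 3′ on the gene's strand, with CACGTG in capitals. They are shown because they carry a feature more frequent in the group than in all tested protein-coding genes, and because the 8 genes took each direction in the comparison of the lines: FBL, NOP2, MRTO4, WDR43 and SRM were higher in SW480, NOP14 was lower, and NAT10 and PES1 did not pass the test. FBL lies at chr19:39846356-39846385, NOP2 at chr12:6568242-6568271, NOP14 at chr4:2963374-2963403 and PES1 at chr22:30591880-30591909, all on the minus strand. SRM lies at chr1:11060200-11060229 on the minus strand, and MRTO4 at chr1:19251807-19251836, WDR43 at chr2:28894658-28894687 and NAT10 at chr11:34105602-34105631 on the plus strand.
FBL: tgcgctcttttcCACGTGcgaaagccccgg
NOP2: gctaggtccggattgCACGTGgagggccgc
MRTO4: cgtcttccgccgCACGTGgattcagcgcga
WDR43: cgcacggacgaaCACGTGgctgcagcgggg
SRM: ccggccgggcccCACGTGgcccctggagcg
NOP14: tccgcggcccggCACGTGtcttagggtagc
NAT10: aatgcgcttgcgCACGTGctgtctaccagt
PES1: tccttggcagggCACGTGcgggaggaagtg
In WDR43, FBL, PES1, MRTO4, NOP14 and NOP2 the first base of the motif was at position 4, 7, 14, 15, 16 and 36 counted from the start, and in NAT10 and SRM it was 15 and 199 bases before it. A match is a description of the letters and not of a bound site.

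The group also shared a second feature. Genes for small nucleolar RNAs lay inside 8 of the 36 genes on the same strand (22.2%), against 1.62% of 15420 tested protein-coding genes. The hosts were GNL3 with 6, NOP56 with 5, NOP58 with 4, NCL and WDR43 with 3 each, DKC1 and PPAN with 2 each, and ODC1 with 1. NOP56 and NOP58 are themselves core proteins of the box C/D snoRNPs, and DKC1 is the pseudouridine synthase of the box H/ACA snoRNPs. The 36 genes lie on 17 chromosomes.

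Libraries held 33790733 to 45451279 counts. HKDC1 itself, the transfected gene, had 12254, 12151 and 14231 CPM (counts per 1000000, here over the library total) in SW480 with HKDC1, against 35.3, 35.5 and 34.1 CPM with empty vector. In COLO320DM it had 6623, 9424 and 9858 CPM with HKDC1, against 0, 0.0249 and 0.0240 CPM with empty vector, so every library went with its label. Of 9 colon epithelial markers, the summed level was 6309 to 8527 CPM in SW480 with HKDC1, 6305 to 8826 with empty vector, 1748 to 1813 in COLO320DM with HKDC1 and 1600 to 1783 with empty vector. CDX1, a colon transcription factor, was at 0 in every COLO320DM library. The 4 endothelial markers were under 1 CPM in every group. The 5 fibroblast markers summed to 2.21 to 4.44 CPM in SW480 and 34.5 to 57.4 CPM in COLO320DM, the 5 leukocyte markers to 7.73 to 13.2 and 32.2 to 41.9 CPM, and the 6 neuroendocrine markers to 6.05 to 9.39 and 3.02 to 6.09 CPM. These sums rest on few genes. In each COLO320DM group 3 fibroblast and 3 leukocyte markers averaged under 1 CPM, and in each SW480 group 4 of each did. Of the neuroendocrine markers, 4 averaged under 1 CPM in every group. The part of all these markers in the results below was not tested.

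CPM in what follows are scaled by TMM, which sets the libraries to a common level over most genes, and levels between genes are compared per kilobase of exon. Together the 36 genes took 0.862% to 1.09% of all counts in SW480 with HKDC1 and 0.844% to 1.10% with empty vector, against 0.660% to 0.720% and 0.659% to 0.717% in COLO320DM with HKDC1 and with empty vector. Per kilobase, NPM1, the abundant nucleolar chaperone nucleophosmin, was the highest, with 677 CPM per kb in SW480 with HKDC1, 643 in SW480 with empty vector, 387 in COLO320DM with HKDC1 and 382 in COLO320DM with empty vector. ODC1, which makes putrescine from ornithine and is the first step of polyamine synthesis, averaged 200 CPM per kb over all libraries. NCL, the nucleolar RNA-binding protein nucleolin, averaged 182 CPM per kb, and FBL, the methyltransferase of the box C/D snoRNPs, 158 CPM per kb. TERT, the reverse transcriptase of telomerase, was the lowest, with 0.403 to 0.473 CPM per kb in the 4 groups. RRP12, known from yeast as an export factor for both subunits, came next with a mean of 5.05 CPM per kb.

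**Figure D1:**
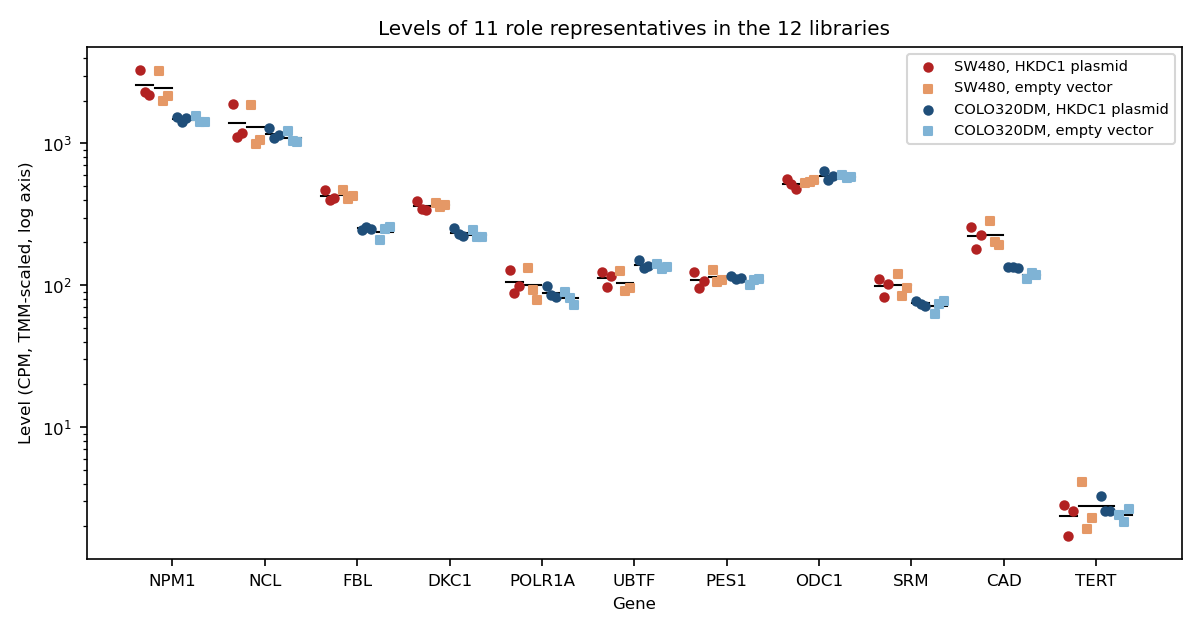
Levels of 11 genes chosen to represent the roles, in CPM on a log axis, with 1 point per library, a black line at each group mean, and the groups of 3 libraries side by side. NPM1, FBL, DKC1 and CAD lie higher in all SW480 libraries than in all COLO320DM libraries, whereas ODC1, PES1 and TERT overlap between the lines when both plasmid groups of a line are pooled.

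Between the lines, most of the group was higher in SW480. With empty vector, 23 of the 36 genes (63.9%) were higher in SW480 than in COLO320DM at an adjusted p under 0.05, where 37.3% of all 23684 genes were, and 3 were lower (8.33%), where 34.3% of all genes were. The median difference over the 36 genes was 0.49 on the log2 scale, against 0.039 over all genes. The libraries with HKDC1 plasmid, which share no library with that comparison, gave 22 higher, against 37.4% of all genes, and 3 lower, against 33.5%, with a median of 0.52. Both comparisons came from 1 fit to all 12 libraries. Deviations of replicate 1 in SW480 also correlated between the plasmid groups, at 0.72, so the second comparison is not an independent repeat. The same 22 and 3 genes were called in both, and BYSL was the exception, called higher with empty vector alone (0.27, adjusted p = 0.00850) and at 0.17 (adjusted p = 0.0686) with HKDC1. In bulk RNA, fewer cells of a type and less RNA per cell cannot be told apart.

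**Figure D2:**
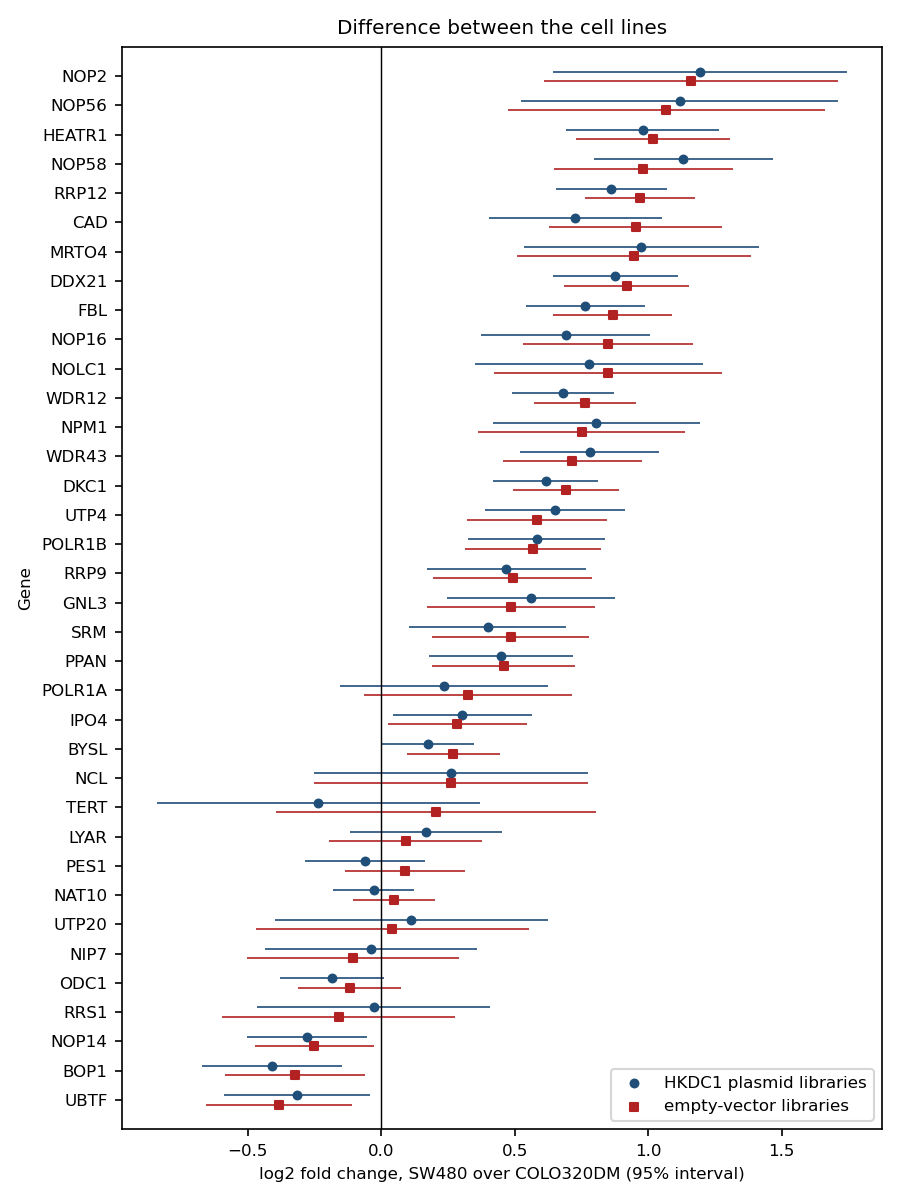
Log2 fold change of each of the 36 genes in SW480 over COLO320DM, with 95% intervals from the fit, for the HKDC1 plasmid libraries (circles) and the empty-vector libraries (squares), sorted by the empty-vector value. NOP2 stands at 1.20 and 1.16 at the top and UBTF at −0.31 and −0.38 at the bottom, and TERT, at −0.24 and 0.20, is the gene whose estimates lie farthest apart.

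At the head of the pathway, the 3 genes of ribosomal RNA transcription were divided. POLR1B, the second-largest subunit of RNA polymerase I, was higher in SW480 (log2 fold change 0.57, SE 0.12, adjusted p = 0.000733, edgeR). POLR1A, the largest subunit, had 132, 92.8 and 78.1 CPM in SW480 with empty vector, against 88.9, 80.7 and 72.7 CPM in COLO320DM. The libraries overlapped and the difference of 0.32 (SE 0.18) did not pass the test (adjusted p = 0.123). UBTF, which opens and bends ribosomal DNA for transcription, went the other way, with 126, 90.5 and 95.3 CPM in SW480, against 142, 130 and 134 CPM in COLO320DM. Every SW480 library was below every COLO320DM library (log2 fold change −0.38, SE 0.13, adjusted p = 0.0155).

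All 5 genes of the snoRNP group were higher in SW480 in both comparisons. FBL had 472, 407 and 422 CPM in SW480 with empty vector, against 208, 248 and 257 CPM in COLO320DM, a log2 fold change of 0.87 (SE 0.10, adjusted p = 5.38e-06). DKC1 had 379, 357 and 367 CPM, against 245, 218 and 220 CPM (0.69, SE 0.092, adjusted p = 1.52e-05). In neither gene did the libraries of the lines overlap. NOP56 had 612, 306 and 321 CPM in SW480, against 228, 181 and 182 CPM in COLO320DM (1.07, SE 0.27, adjusted p = 0.00334), so that 1 SW480 library was far above the other two and the interval was wide, at 0.48 to 1.66. NOP58, its partner in the box C/D particle, had 242, 192 and 199 CPM, against 128, 98.0 and 94.7 CPM (0.98, SE 0.15, adjusted p = 7.42e-05). NOLC1, a chaperone of both snoRNP classes, was higher by 0.85 (SE 0.20).

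Of the 9 genes of the small subunit processome and 40S assembly, 6 were higher and 1 was lower in SW480 with empty vector. RRP12 had 63.6, 60.1 and 55.2 CPM in SW480, against 28.0, 31.9 and 31.4 CPM in COLO320DM, the smallest adjusted p of the group (0.97, SE 0.096, adjusted p = 8.76e-07). HEATR1, a scaffold that is also needed for transcription of ribosomal DNA, had 198, 157 and 147 CPM, against 91.3, 81.2 and 75.3 CPM (1.02, SE 0.13, adjusted p = 1.32e-05). WDR43, UTP4 and RRP9, all processome components, were higher by 0.72, 0.58 and 0.49. NOP14, a processome protein, was lower, with 106, 84.2 and 84.4 CPM in SW480, against 109, 110 and 109 CPM in COLO320DM (−0.25, SE 0.10, adjusted p = 0.0437). UTP20 stood at 0.042 and NAT10, the acetyltransferase of ribosomal RNA, at 0.048, neither past the test. NAT10 was also among the most evenly measured genes, with 149, 155 and 146 CPM in SW480 and 147, 146 and 142 CPM in COLO320DM.

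The 11 genes of 60S assembly gave 7 higher, 1 lower and 3 that did not pass. NOP2, a methyltransferase of 28S ribosomal RNA, had the largest difference of the group, with 232, 113 and 120 CPM in SW480 with empty vector, against 69.7, 69.3 and 68.9 CPM in COLO320DM (1.16, SE 0.25, adjusted p = 0.00111). SW480 replicate 1 was far above replicates 2 and 3, and NOP2 ranged from 0.76 to 1.35 over the alternative runs. NOP58, RRP12 and HEATR1 did not fall below 0.88 in those runs. MRTO4, DDX21 and NOP16 were higher by 0.95, 0.92 and 0.85, WDR12 by 0.76, and GNL3 (nucleostemin) and PPAN by 0.49 and 0.46. The 3 subunits of the PeBoW complex, which is needed to process the 60S precursor, did not move together. WDR12 was higher, PES1 had 127, 105 and 108 CPM in SW480, against 99.9, 109 and 111 CPM in COLO320DM (0.089, adjusted p = 0.458), and BOP1 had 89.8, 72.4 and 74.3 CPM, against 83.4, 107 and 105 CPM (−0.32, SE 0.12, adjusted p = 0.0290). The BOP1 libraries overlapped through COLO320DM replicate 1. RRS1 and NIP7 stood at −0.16 and −0.10 and did not pass.

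Among the nucleolar proteins with several roles and the importer, NPM1 had 3215, 1996 and 2170 CPM in SW480 with empty vector, against 1561, 1404 and 1420 CPM in COLO320DM (0.75, SE 0.18, adjusted p = 0.00205). IPO4, a nuclear importer, was higher by 0.28 (SE 0.12, adjusted p = 0.0484). NCL had 1877, 996 and 1060 CPM, against 1222, 1037 and 1018 CPM, and its 0.26 (SE 0.24, adjusted p = 0.336) did not pass. Without the high SW480 library, replicate 1, NCL stood at −0.078. LYAR, a nucleolar zinc-finger protein, stood at 0.091.

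In the polyamine and pyrimidine branch, CAD, which carries the first 3 enzymes of pyrimidine synthesis, had 286, 203 and 192 CPM in SW480 with empty vector, against 111, 122 and 119 CPM in COLO320DM (0.95, SE 0.15, adjusted p = 7.58e-05). SRM, spermidine synthase, had 119, 84.2 and 96.2 CPM, against 63.1, 73.2 and 77.9 CPM (0.49, SE 0.14, adjusted p = 0.00597). ODC1 had 527, 536 and 547 CPM, against 598, 571 and 579 CPM, so all SW480 libraries were below, but the difference of −0.12 (SE 0.090) did not pass (adjusted p = 0.252). TERT had 4.13, 1.91 and 2.29 CPM, against 2.40, 2.14 and 2.66 CPM, and its 0.20 did not pass. It was −0.18 without SW480 replicate 1.

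The 3 lower calls rested on small differences. With empty vector, none of UBTF, BOP1 and NOP14 passed when SW480 replicate 2 or SW480 replicate 3 was left out, and 1 passed without COLO320DM replicate 2 or COLO320DM replicate 3. With HKDC1, 1 of the 3 passed without COLO320DM replicate 1 or without SW480 replicate 2. With 1 library left out, the number of higher calls was 22 to 24 with empty vector and 20 to 22 with HKDC1. With the same replicate number left out of both lines, it was 20 to 23 and 18 to 22.

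MYC itself was lower in SW480. It had 907, 936 and 914 CPM with empty vector, against 3287, 3369 and 3406 CPM in COLO320DM, a log2 fold change of −1.87 (SE 0.092, adjusted p = 8.33e-10). With HKDC1 it had 863, 751 and 733 CPM in SW480, against 3599, 3480 and 3468 CPM in COLO320DM (−2.17). No library of either line overlapped with the other. Of the 12 genes of the MYC network, 3 were higher in SW480 with empty vector, MYCL (2.09), MXD3 (0.93) and MXD1 (0.59), where 37.3% of all genes were. Lower were 5, where 34.3% of all genes were, the largest changes being in MXD4 (−2.63), MYC and MYCN (−1.84). MXD1, MXD3 and MXD4 encode repressive partners of MAX that bind the same hexamer. The genes whose window held CACGTG had 9 of 14 higher and 1 lower in SW480, with a median of 0.38, and the others with a window had 11 of 17 higher and 1 lower, with a median of 0.57.

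Other genes of the same processes, taken from lists of 115 ribosome biogenesis genes, gave 58 higher and 20 lower in SW480 with empty vector, with a median of 0.31. Over all genes, 37.3% were higher and 34.3% lower. Most of the 13 other snoRNP and telomerase proteins passed upward (7 higher, 1 lower), among them TCOF1 (1.16), NHP2 (0.99) and RUVBL2 (0.92), with NUFIP1 (−0.70) as the lower one. The 36 other 40S genes gave 21 higher and 6 lower, led by UTP14A (1.61), PWP2 (1.34) and WDR36 (1.30), and at the lower end by UTP3 (−1.25), IMP4 (−1.13) and RIOK1 (−0.80). The 42 other 60S genes gave 20 higher and 5 lower, led by URB1 (2.03), EIF6 (1.65) and DDX56 (1.36), and at the lower end by TEX10 (−0.84), REXO4 (−0.70) and NMD3 (−0.62). The 24 other RNA polymerase I and III genes gave 10 higher and 8 lower, near the shares over all genes. POLR3G (1.00), RRN3 (0.77) and BRF1 (0.77) led the higher ones, and POLR1D (−0.78), TTF1 (−0.53) and BRF2 (−0.48) the lower ones.

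Of 16 other genes of the polyamine pathway, 7 were higher and 3 lower in SW480 with empty vector, and the median was −0.017. Over all genes, 37.3% were higher and 34.3% lower. SAT1, which acetylates spermidine and spermine for export or breakdown, averaged 274 ± 45.6 CPM in SW480 and 42.8 ± 3.82 CPM in COLO320DM (SD, n = 3 each), a log2 fold change of 2.68 (SE 0.16, adjusted p = 4.59e-09, edgeR). SMOX, spermine oxidase, averaged 40.4 ± 7.59 and 8.81 ± 2.05 CPM in SW480 and in COLO320DM (2.20, SE 0.20, SD, n = 3 each). AGMAT, annotated as agmatinase, averaged 36.7 ± 13.0 CPM in SW480 and 0.117 ± 0.0468 CPM in COLO320DM (SD, n = 3 each). AZIN2, an antizyme inhibitor that keeps ODC1 from degradation, was lower (−2.50, SE 0.23), and so were ARG2 (−0.85) and OAZ2 (−0.43). Among 19 other genes of nucleotide synthesis, 10 were higher, led by GART (1.22), IMPDH1 (1.06) and ATIC (1.03), and 5 were lower, led by PPAT (−0.80), PAICS (−0.73) and DHODH (−0.73).

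The plasmid comparison asked what HKDC1 overexpression did to these genes. No difference passed the test for any of the 36 in either line. In SW480, 0 of 36 were called, where 0.0127% of all genes were (0.76% with the replicate number as a block). In COLO320DM, 0 of 36 were called, where 0.00844% of all genes were (0.076% with the block). The counts were also 0 with DESeq2 and with limma-voom, and none of the 36 had an unadjusted p under 0.05 in the edgeR fit without a block, in DESeq2 or in limma-voom. With the block, 5 genes in SW480 and 3 in COLO320DM had one. The genes lay between −0.22 and 0.12 in SW480 (19 above 0, 17 below, median 0.0091), and between −0.13 and 0.22 in COLO320DM (25 above 0, 11 below, median 0.037). These sign counts moved when a single library was left out of a group. In SW480 they became 3 above and 33 below without HKDC1 replicate 1, 4 and 32 without empty-vector replicate 2, and 5 and 31 without empty-vector replicate 3, but 29 above and 7 below without HKDC1 replicate 2 or without empty-vector replicate 1. In COLO320DM they became 13 above and 23 below without HKDC1 replicate 1, and 32 and 4 without HKDC1 replicate 2 or 3. With the same replicate number left out of both groups, they moved less. In SW480 they were 19 above and 17 below without replicate 1 or 3, and 17 and 19 without replicate 2. In COLO320DM they were 24 and 12 without replicate 1 or 3, and 27 and 9 without replicate 2.

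**Figure D3:**
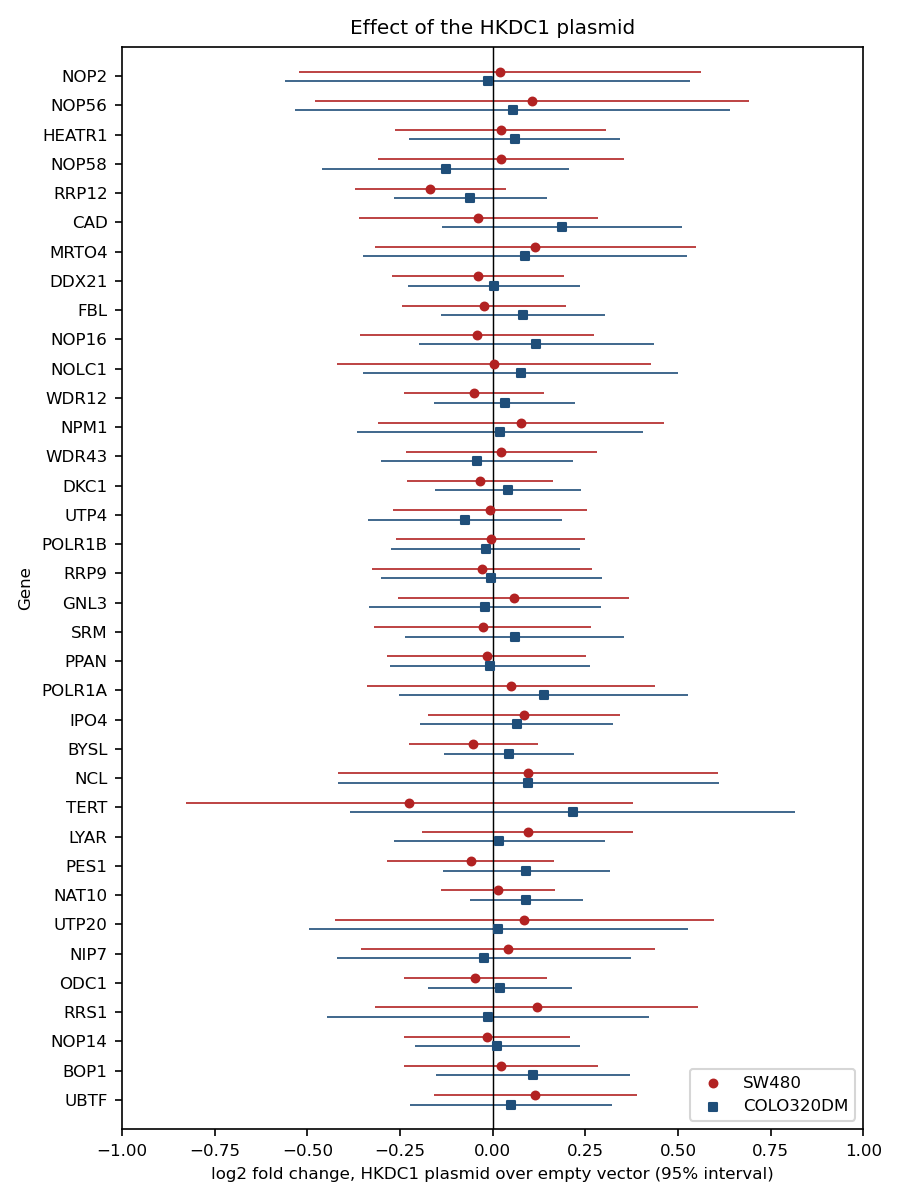
Log2 fold change of each of the 36 genes with HKDC1 plasmid over empty vector, with 95% intervals from the fit, in SW480 (circles) and COLO320DM (squares), in the order of the line difference. Every interval includes 0, and the estimates lie between −0.22 and 0.22.

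The precision limits what this says. The 95% interval of the fold change lay within 0.5 log2 units of 0 on both sides for 29 genes in SW480 and 28 in COLO320DM, and for 35 in each line with the block. The median size of the interval on each side was 0.28 in SW480 and 0.29 in COLO320DM without the block, and 0.12 in both with it. TERT was the gene outside those limits in both lines with the block, with intervals of −0.53 to 0.15 in SW480 and −0.12 to 0.55 in COLO320DM.

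The genes nearest to a difference were small in size. In SW480, RRP12 had 55.2, 48.5 and 55.4 CPM with HKDC1, against 63.6, 60.1 and 55.2 CPM with empty vector, and the groups overlapped (−0.17, SE 0.095, adjusted p = 1.00, and 0.328 with the block). UBTF had 124, 97.7 and 116 CPM with HKDC1, against 126, 90.5 and 95.3 CPM (0.12, SE 0.13). LYAR had 90.6, 82.2 and 70.5 CPM, against 87.8, 68.5 and 71.5 CPM (0.094, SE 0.13), and TERT had 2.84, 1.71 and 2.58 CPM, against 4.13, 1.91 and 2.29 CPM (−0.22, SE 0.28). In each of these 3 genes the groups overlapped.

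In COLO320DM, CAD had 133, 135 and 132 CPM with HKDC1, against 111, 122 and 119 CPM with empty vector, with no overlap (0.19, SE 0.15, adjusted p = 1.00, and 0.645 with the block). The test of the difference between the lines' plasmid effects did not pass for CAD either, at −0.23 (SE 0.21). NAT10 had 155, 153 and 155 CPM with HKDC1, against 147, 146 and 142 CPM (0.090, SE 0.071), again without overlap. NOP58 had 114, 84.4 and 94.6 CPM, against 128, 98.0 and 94.7 CPM (−0.13, SE 0.15), and RRP12 had 26.9, 30.8 and 29.8 CPM, against 28.0, 31.9 and 31.4 CPM (−0.061, SE 0.096). In both of these genes the groups overlapped. Counted over libraries alone, 4 of the 36 (NAT10, PES1, NOP16 and CAD) were above in every HKDC1 library, where 3.52% of all genes were, and 0 were below, where 4.22% were. In SW480 0 were above, where 2.16% of all genes were, and 1 (BYSL) was below, where 2.28% were. The difference of the plasmid effects between the lines gave 0 of 36 calls, where 0.00844% of all genes were called (0.0422% with the block). The 115 other ribosome biogenesis genes also gave 0 calls in either line with edgeR, with and without the block, and so did the polyamine and nucleotide lists. The MYC network gave 0 calls without the block and 1 with it, MYC itself in SW480. MYC averaged 783 ± 70.3 CPM with HKDC1 and 919 ± 15.5 CPM with empty vector in SW480, and 3515 ± 72.4 and 3354 ± 60.7 CPM in COLO320DM (SD, n = 3 each). In SW480 the difference was −0.23 (SE 0.089, adjusted p = 1.00, edgeR) without the block and −0.24 (SE 0.056, adjusted p = 0.0284) with it, and every HKDC1 library was below every empty-vector library. In COLO320DM it was 0.068 and did not pass in either fit.

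Within a line, the genes differed between replicate 1 and the other libraries. In SW480, both replicate 1 libraries, with HKDC1 and with empty vector, were above the other 4 libraries for 30 of the 36 genes, where 27.1% of all genes were, and below for 0, where 28.4% were. The median difference of replicate 1 from the mean of replicates 2 and 3 was 0.33 on the log2 scale, with 0.33 in the HKDC1 group and 0.36 in the empty-vector group, against −0.016 over all genes. In COLO320DM, 21 of the 36 were above, where 20.5% of all genes were, and 4 (BOP1, RRP12, FBL and BYSL) were below, where 21.3% were, with a median of 0.12 (0.14 with HKDC1, 0.11 with empty vector). The labels give no batch, so replicate 1 is set against the others only as a description, with no test.

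**Figure D4:**
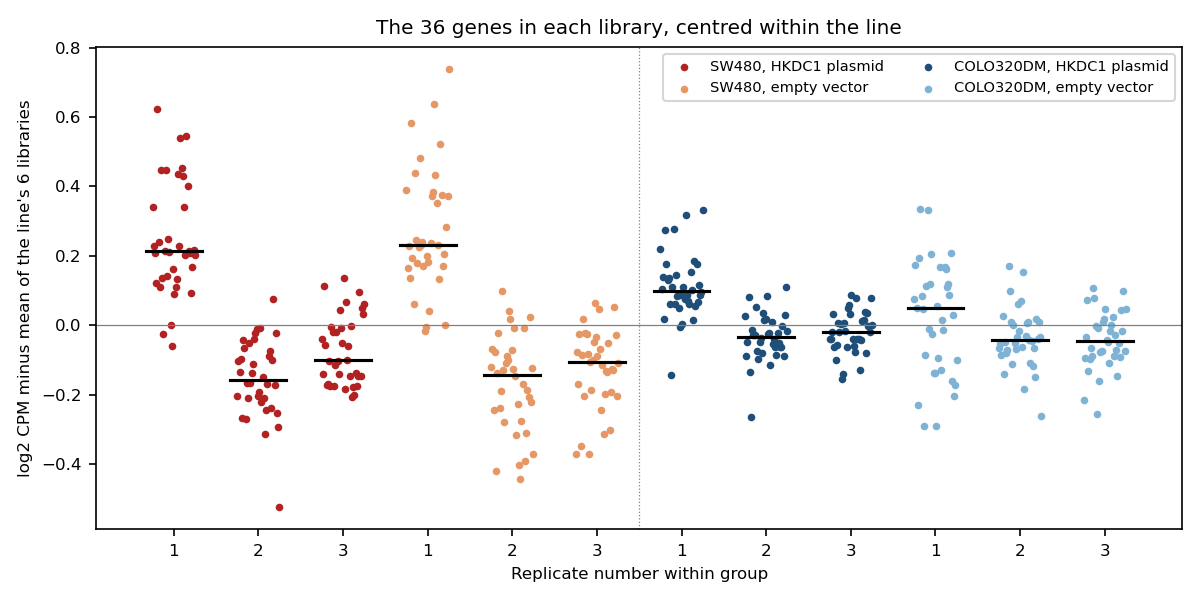
Log2 CPM of the 36 genes in each of the 12 libraries, as the difference from the mean of the 6 libraries of the same line, with 1 point per gene and a black line at the median. The medians of replicate 1 are 0.21 and 0.23 in SW480 with HKDC1 and with empty vector, and 0.098 and 0.048 in COLO320DM, whereas those of replicates 2 and 3 lie between −0.16 and −0.019.

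The size differed between genes. In SW480, NOP56 had the largest difference, 0.90, with 630 CPM in replicate 1 against 340 and 363 CPM in replicates 2 and 3 with HKDC1, and 612 against 306 and 321 CPM with empty vector. NOP2 was next at 0.88, with 217 against 120 and 135 CPM with HKDC1. NCL and TERT, at 0.80 and 0.71, and UTP20, at 0.70, followed. The smallest differences among the 30 were in DKC1 (0.13) and FBL (0.19), and BOP1, BYSL, NAT10, ODC1, RRP12 and WDR12 overlapped. DKC1 had 392 against 347 and 338 CPM with HKDC1, and 379 against 357 and 367 CPM with empty vector.

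In COLO320DM, UTP20, a large scaffold of the processome, had 68.7 CPM in replicate 1 against 52.9 and 51.3 CPM in replicates 2 and 3 with HKDC1, and 71.3 against 52.4 and 47.4 CPM with empty vector, a difference of 0.46. NOP58 followed at 0.38. At the other end, BOP1 had 102 against 108 and 108 CPM with HKDC1, and 83.4 against 107 and 105 CPM with empty vector (−0.21), and RRP12 stood at −0.17. The sign differed between the plasmid groups for 9 genes in COLO320DM and for 1 (ODC1) in SW480. The 115 other ribosome biogenesis genes gave 76 above and 8 below in SW480, where 27.1% and 28.4% of all genes were. In COLO320DM they gave 53 above and 14 below, where 20.5% and 21.3% of all genes were.

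Replicate 1 of SW480 also had lower scaling factors than the other libraries, at 0.903 with HKDC1 and 0.920 with empty vector, against 0.994 to 1.02 in the other SW480 libraries. On library totals instead of TMM, 22 of the 36 were above in SW480, where 17.0% of all genes were. Below were 2, where 39.6% of all genes were. The median was 0.19, against −0.15 over all genes. The line differences were also computed without replicate 1 in either line. They gave 20 higher and 4 lower with empty vector, with a median of 0.37, and 20 higher and 2 lower with HKDC1, with a median of 0.42. Of all 24073 genes tested with empty vector, 8847 were higher and 8046 lower, and of all 24197 tested with HKDC1, 8309 and 7520.

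The base composition of the transcripts moved with replicate 1 most in COLO320DM. The GC content of the longest GENCODE 29 transcript was 40.2% to 65.7% over the 36 genes. In COLO320DM with empty vector, the difference of replicate 1 from replicates 2 and 3 fell with GC across the genes (Pearson −0.78, Spearman −0.79), and in COLO320DM with HKDC1 less steeply (−0.36 and −0.42). In SW480 the values were −0.24 and −0.28 with HKDC1, and 0.12 and 0.12 with empty vector. For the line difference with empty vector they were −0.25 and −0.26. These describe 36 genes that share the same libraries, and the part of GC in the results was not tested.

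**Figure D5:**
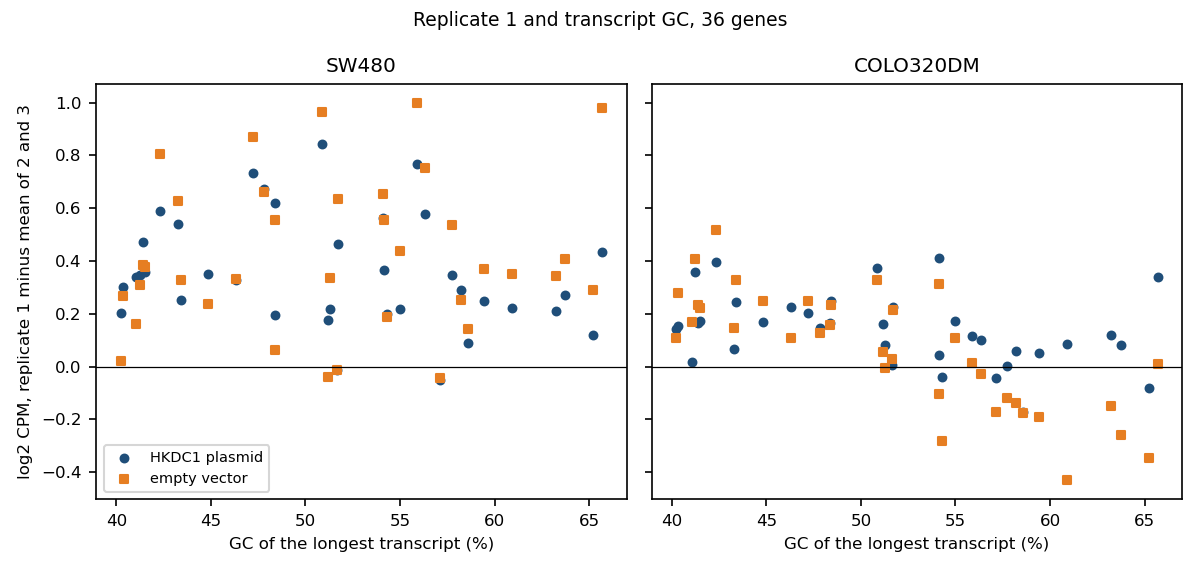
Log2 CPM of replicate 1 minus the mean of replicates 2 and 3 against the GC content of the longest transcript, with 1 point per gene for the HKDC1 plasmid (circles) and the empty vector (squares), in SW480 on the left and COLO320DM on the right. The slope downward is clearest in COLO320DM with empty vector, where Pearson's correlation is −0.78.

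By the exon positions deposited with the counts, exons of 18 of the 36 genes overlap those of another gene. The strand setting of the counts was not given in the sources used here, so the reads of such pairs cannot be told apart. For NOP2, the readthrough gene ENSG00000285238 shares 2550 exon bases and carried 510% of the counts of NOP2 over the 12 libraries. For IPO4, ENSG00000259522 shares 3375 bases (115%), for PPAN, the readthrough PPAN-P2RY11 shares 1374 bases (96.8%), and for NIP7, COG8 on the opposite strand shares 957 bases (127%). HEATR1 shares 2095 bases with LGALS8 (61.1%), and NOP14 shares 737 with NOP14-AS1 (53.9%). The values of these genes are therefore less certain than those of NPM1, FBL, SRM and CAD, which overlap no other gene.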

How the data were processed

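RNA of SW480 and COLO320DM, with HKDC1 plasmid or empty vector, was measured in 12 poly-A libraries. The authors deposited 1 table of raw read counts, with a whole number for each gene and library. Per the submitters' processing notes, HISAT2 2.1.0, limma and GRCh38 were used; the roles of the tools, the counter, the annotation and the strand setting are not given in the sources used here. The 36 genes and the pathway lists were chosen with earlier results of these data known. After filterByExpr (count at least 10, total at least 15), genes entered edgeR 4.0.16 (R 4.3.3) with TMM factors, 4 group means over 12 libraries, 8 residual degrees of freedom, and quasi-likelihood F tests with Benjamini-Hochberg adjustment at 0.05 over all 23684 genes. SE is |log2 fold change|/√F, and intervals are 95%. The fits were tested on simulated data for the plasmid effect in SW480 only. The simulated libraries were independent, so a difference of replicate 1 was not covered.

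Replicate numbers pair the libraries within a line by the data: deviations of same-numbered libraries correlated at 0.72, 0.44 and 0.31 in SW480 and 0.40, 0.13 and 0.12 in COLO320DM, mainly because replicate 1 stood apart. Replicates 2 and 3 of unlike number correlated about as much, at 0.47 and 0.37 in SW480 and 0.16 and 0.15 in COLO320DM, so the block mostly separates replicate 1. Plasmid effects were therefore also fitted with the replicate number as a block within each line, and the blocked value is given where a count of calls moved. DESeq2 1.42.0, limma 3.58.1 (voom), other scalings and left-out libraries were alternatives. Values in every library are given for role representatives, for the 2 genes of smallest p in each direction of a plasmid comparison, for the 5 largest called line differences in each direction, and for the 2 largest and 2 smallest replicate 1 differences without overlap. Other values are ranges, counts and examples, some picked after they were seen. Replicate 1 was compared on log2(CPM + 0.01). Exon positions and lengths come with the deposited counts, snoRNA genes and gene types from GENCODE 29, and promoters from RefSeq. Symbols come from a separate list of gene names.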

Additional observations from a re-analysis of the deposited data

How the results depend on the processing

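No plasmid effect on any of the 36 genes was called under any alternative run in either line. The difference of the plasmid effects was called lower for 0 to 1 genes when libraries were left out, the 1 appearing with the block and without replicate 3 of SW480. Leaving out libraries, the median plasmid effect ranged from −0.12 to 0.12 in SW480 and from −0.015 to 0.070 in COLO320DM, and the median difference of the effects from −0.15 to 0.084. Members called lower between the lines ranged from 0 to 4 in both the empty-vector and the HKDC1 comparison, and the median with HKDC1 from 0.38 to 0.57. With only the 6 empty-vector libraries fitted, 1 was called lower. Library totals gave 21 higher and 4 lower with empty vector, where 8211 and 8740 of all 23684 genes were. In SW480, replicate 1 on library totals gave 2 genes below, where 39.6% of all genes were, and a median of 0.19. The replicate 1 median was 0.36 in SW480 with empty vector alone and 0.14 in COLO320DM with HKDC1 alone. CACGTG before the start was found in 6 genes.

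On library totals the median plasmid effect in SW480 was −0.017, with 14 genes above 0 and 22 below. The genes named next changed sign, and none was called in the comparison given. With libraries left out, the plasmid effect ranged from −0.26 to 0.021 for NOP58 in COLO320DM and from −0.43 to 0.15 for TERT in SW480 (0.0043 with the block and without replicate 1). Between the lines with empty vector, PES1 ranged from −0.027 to 0.16, NCL from −0.078 to 0.42 and TERT from −0.18 to 0.41. With HKDC1, PES1 ranged from −0.17 to 0.0048 and NCL from −0.035 to 0.39. The cause was not tested. Same-numbered libraries did not correlate across the lines beyond 0.02 to 0.15, so their numbers do not pair. The replicate block across lines gave 24 higher and 3 lower with empty vector, and 24 and 4 with HKDC1. Of all 23684 genes, 9365 were higher and 8701 lower with empty vector, and 9415 and 8525 with HKDC1. The block changed no plasmid call of the 36 genes. Depth was 33790733 to 45451279 counts, which gave TERT 1213 counts over the 12 libraries, so that TERT is the least precise member.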
